A study of Mus musculus with 6 samples.

Results

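The genes described here drive the cell division cycle. They were chosen as a list of 40 symbols, and every probe set of the array whose annotated gene is 1 of these symbols was taken, which gave 95 probe sets of 39 genes among 45037 probe sets of 18193 genes. Ccnb1 had no probe set under its symbol in the annotation used. The genes were read in 3 classes, with 24 mitotic genes, 10 DNA replication genes and 5 regulators of the step from G1 to S phase. The samples were whole lungs of adult BALB/c mice given 2 to 3 µg of IL-13 into the trachea once a day for 7 days, and lungs were removed 24 hours after dosing ended. There were 3 groups: mice without the IL-4 receptor that were hemizygous for a receptor transgene driven by the SMP8 promoter, described by the submitters as smooth muscle specific (IL4R -/-, SMP8-IL4R +/-, written IL4R KO + SMP8-IL4R or transgenic), mice without the receptor and without the transgene (IL4R -/-, written IL4R KO), and mice with both receptor alleles (IL4R +/+, written WT). Each group had 2 arrays and each array an RNA pool of 4 mice, so single mice were not measured. All groups received IL-13, and no untreated lung was measured. The IL-4 receptor alpha chain is the subunit through which IL-13 signals, and in transgenic mice it was placed, by design, in smooth muscle.

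Cells that divide pass from G1 into S phase, copy their DNA, and separate the copies in mitosis. D and E type cyclins with their kinases release E2F transcription factors, which switch on genes for the MCM helicase that opens DNA at origins, for the sliding clamp PCNA and for the enzymes that make deoxynucleotides. Later the DREAM, MYB-MuvB and FOXM1 complexes control a second wave of genes, whose products build the spindle, attach and check the chromosomes, and split the cell. Most cells of the adult lung are at rest, and transcripts of these genes are used as a sign of how many cells of a tissue are cycling. In bulk RNA, fewer cycling cells and less of a transcript per cell cannot be told apart.

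The promoters of the classes differ in the letters they hold, and examples are shown because the mitotic and replication genes differed in which arrays were high. RefSeq promoter windows of 300 bases (GRCm38.p6, from 250 bases before to 50 after the gene start) were found for 31 of the 39 genes, 20 of them mitotic and 9 replication genes, and the window listed at the top was taken for the 2 genes with several. The letters TTTGAA, the cell cycle homology region (CHR) that the MuvB complexes bind, were searched on both strands. They occurred in 15 of 20 mitotic promoters (75%), in 1 of 9 replication promoters (11.1%), that of Mcm2, and in 17.9% of all 32851 promoters. Letters of the E2F site, TTTGGCGC, TTTGCCGC, TTTCGCGC or TTTCCCGC on either strand, occurred in 4 of 9 replication promoters (44.4%), those of Mcm3, Mcm5, Mcm6 and Mcm7, in 1 of 20 mitotic promoters (5%), that of Cdk1, and in 2.26% of all promoters. Since these letters can read on both strands at once, matches may overlap each other. CCAAT, bound by NF-Y, was found in 17 of 20 mitotic and 8 of 9 replication promoters, against 37.4% of all. A match is a stretch of letters and was not measured as a binding site here. Of 19 CHR matches in mitotic promoters, 14 began within 50 bases of the gene start. The windows below run 5′ to 3′ along the gene's strand, and capitals mark CHR, CCAAT and E2F letters. Kif11 is shown as the member with the lowest p between IL4R KO and WT. Cdk1 is shown as the mitotic promoter with both CHR and E2F letters, and Mcm5 and Mcm6 as helicase genes.
Kif11 promoter, chr19:37376132-37376431, plus strand: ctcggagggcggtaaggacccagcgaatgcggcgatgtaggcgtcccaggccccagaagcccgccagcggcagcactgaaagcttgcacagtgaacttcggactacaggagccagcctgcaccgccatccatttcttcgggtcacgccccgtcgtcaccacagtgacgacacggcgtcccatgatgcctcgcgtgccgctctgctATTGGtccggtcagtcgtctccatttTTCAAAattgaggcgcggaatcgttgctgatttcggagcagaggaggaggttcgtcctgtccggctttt
Cdk1 promoter, chr10:69352863-69353162, minus strand: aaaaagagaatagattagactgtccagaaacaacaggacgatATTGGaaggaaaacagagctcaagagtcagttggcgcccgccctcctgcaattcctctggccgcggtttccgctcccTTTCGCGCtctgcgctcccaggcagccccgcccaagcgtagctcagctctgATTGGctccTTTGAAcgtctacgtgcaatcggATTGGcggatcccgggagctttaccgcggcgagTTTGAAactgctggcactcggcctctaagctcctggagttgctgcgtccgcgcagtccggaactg
Mcm5 promoter, chr8:75109259-75109558, plus strand: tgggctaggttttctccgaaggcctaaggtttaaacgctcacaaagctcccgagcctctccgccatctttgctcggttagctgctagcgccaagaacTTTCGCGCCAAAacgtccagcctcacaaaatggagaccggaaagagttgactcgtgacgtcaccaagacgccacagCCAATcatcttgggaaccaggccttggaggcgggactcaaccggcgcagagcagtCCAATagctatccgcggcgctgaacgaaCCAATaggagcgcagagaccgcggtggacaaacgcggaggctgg
Mcm6 promoter, chr1:128359656-128359955, minus strand: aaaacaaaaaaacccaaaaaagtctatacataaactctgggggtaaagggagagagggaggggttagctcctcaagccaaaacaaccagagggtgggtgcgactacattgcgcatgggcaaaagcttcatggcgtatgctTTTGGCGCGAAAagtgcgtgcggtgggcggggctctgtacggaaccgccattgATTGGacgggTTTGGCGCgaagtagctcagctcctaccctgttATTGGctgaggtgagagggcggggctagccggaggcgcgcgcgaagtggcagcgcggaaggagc

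All arrays were close in their overall level, with array medians between 7.08 and 7.11 on the log2 scale of the RMA values. Lung markers were bright in all 6 arrays, with medians of the alveolar type 2 list from 14.1 to 14.3 and of the club cell list from 13.8 to 14.2. Il4ra, the targeted gene, had 9.98 and 9.84 in transgenic, 9.35 and 9.55 in IL4R KO and 9.64 and 9.81 in WT lungs by its brightest probe set. The next brightest had 8.94 and 8.80 in transgenic, 8.92 and 8.93 in IL4R KO and 9.23 and 9.29 in WT lungs, where transgenic was not above IL4R KO. Their place relative to the deletion is not known here, so they check no label. Some arrays stood apart. Albumin (Alb), a liver transcript, stood at 12.26 in the first IL4R KO pool and at 11.81 in the second WT pool, against 5.68 to 5.93 elsewhere. The Y-linked gene Eif2s3y was 4.27 in IL4R KO pool 2, against 8.49 to 9.18 elsewhere, and Xist was 7.93 in IL4R KO pool 1, against 10.08 to 11.40 elsewhere. Medians and non-overlap counts of the mitotic and replication genes are also given without these arrays, and those of the other classes and lists are not.

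Levels of the members ran from dim to bright. The lower quartile, median and upper quartile of all values were 5.30, 7.10 and 8.98. Mean levels of the mitotic genes over the 6 arrays lay between 6.15 for Cenpe and 8.97 for Cdc20, and 15 of 24 were above the median of all values. Replication genes were brighter, from 5.13 for Tyms, below the lower quartile, to 11.89 for Pcna. Values of different genes come from different probes, so these levels place each gene among all values and do not rank transcripts against each other.

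**Figure D1:**
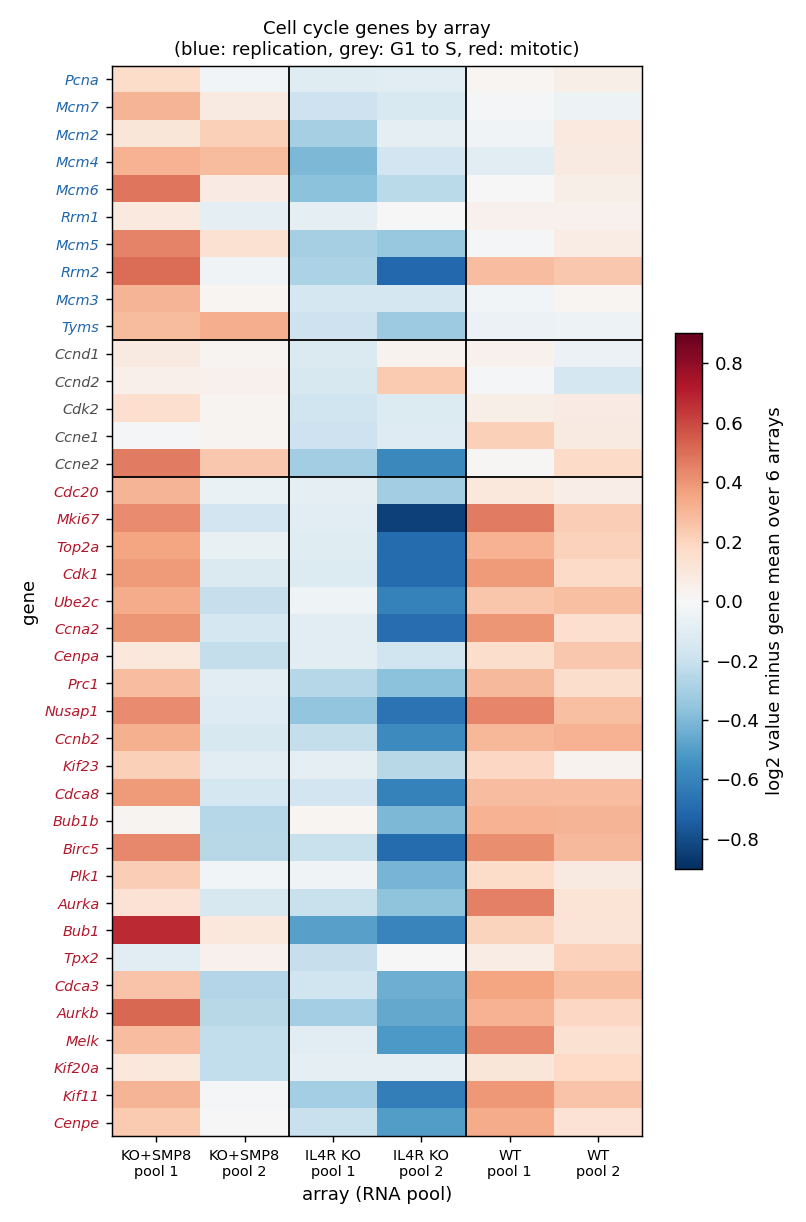
Each row is a gene and each column an array, 2 for each of IL4R KO + SMP8-IL4R, IL4R KO and WT. Colour gives the log2 value minus the gene's mean over the 6 arrays. Of the 24 mitotic genes, 21 had their lowest value in IL4R KO pool 2, and 8 of 10 replication genes had their highest in transgenic pool 1.

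The IL4R KO lungs were compared with WT to ask what the receptor changed in any cell. By the brightest probe set of each gene, every mitotic gene was lower in both IL4R KO pools than in both WT pools. So was every replication gene, but no single member passed the test. The 24 mitotic genes had differences from -0.86 to -0.23, with a median of -0.61 on the log2 scale, against a median of 0.003 over all 18193 genes. The 10 replication genes had differences from -0.76 to -0.07, with a median of -0.22. Groups without overlap in this direction were 24 of 24 and 10 of 10, where 24.6% of all genes did the same. Not 1 of the 39 members passed limma at an adjusted p under 0.05, at which 2.8% of all genes passed, 1.07% as higher and 1.73% as lower. At an unadjusted p under 0.05, 26 of 39 were lower and 0 higher, against 1702 lower and 1747 higher of all genes. The lowest adjusted p of a member was 0.0556.

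The 4 mitotic genes with the lowest p values are given here. Kif11, the kinesin that pushes spindle poles apart, had 5.88 and 5.56 in IL4R KO lungs, against 6.57 and 6.44 in WT lungs. Both knockout pools lay below both WT pools, with a difference of -0.79 ± 0.15 (SE, limma adjusted p = 0.0556), or 0.58 times the WT level. Nusap1, which bundles spindle microtubules, had 7.42 and 7.10 in IL4R KO and 8.21 and 8.04 in WT, without overlap. This was the largest mitotic difference, -0.86 ± 0.19 (adjusted p = 0.0849). Cenpe, a kinesin of the kinetochore, had 5.94 and 5.65 in IL4R KO and 6.48 and 6.28 in WT (-0.58 ± 0.14, adjusted p = 0.0935). Its knockout values were again the lower ones in both pools. Prc1, which organises the central spindle, had 7.53 and 7.41 in IL4R KO and 8.07 and 7.94 in WT, a difference of -0.54 ± 0.13 (adjusted p = 0.107).

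Markers that are widely used to count dividing cells differed by as much but varied more between pools. Mki67, which coats mitotic chromosomes, had 8.77 and 8.03 in IL4R KO and 9.33 and 9.09 in WT, a difference of -0.81 ± 0.29 (limma adjusted p = 0.208). The topoisomerase Top2a had 8.18 and 7.59 in IL4R KO and 8.60 and 8.49 in WT (-0.66 ± 0.22, adjusted p = 0.184). The mitotic kinase gene Cdk1 had 7.98 and 7.41 in IL4R KO and 8.49 and 8.28 in WT (-0.69 ± 0.24, adjusted p = 0.200). In each of these genes pool 2 of IL4R KO was the lowest of all arrays and pool 1 lay nearer to WT. The mitotic cyclin genes Ccna2 (-0.66) and Ccnb2 (-0.70) had differences of this size too. So did 3 genes of the chromosomal passenger complex, which corrects faulty attachments, namely its kinase Aurkb (-0.64), the survivin gene Birc5 (-0.80) and the borealin gene Cdca8 (-0.67). Between -0.70 and -0.50 lay Bub1 (-0.70) and Bub1b (-0.50) of the spindle checkpoint, the spindle pole kinase Aurka (-0.57), Cdca3 (-0.62), which helps to degrade WEE1, the kinase gene Melk (-0.59) and Ube2c (-0.59), the ubiquitin-conjugating enzyme of the anaphase-promoting complex. Smaller differences were those of the cytokinesis kinesins Kif20a (-0.23) and Kif23 (-0.28), the spindle assembly factor Tpx2 (-0.24) and the anaphase activator Cdc20 (-0.28). The centromere histone Cenpa (-0.34) and the polo-like kinase Plk1 (-0.35) also differed less. For Tpx2 the size depends on the probe set. Its next brightest had 6.30 and 6.12 in IL4R KO and 6.82 and 6.60 in WT. A dimmer one had 5.87 and 5.81 in IL4R KO and 5.88 and 6.01 in WT.

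Replication genes differed less, with Rrm2 as the exception. Rrm2, the regulated subunit of ribonucleotide reductase, had 8.70 and 8.27 in IL4R KO and 9.26 and 9.22 in WT. Both knockout pools were lower, with a difference of -0.76 ± 0.20 (limma adjusted p = 0.126), or 0.59 times the WT level. Rrm1, the partner subunit, had 9.17 and 9.26 in IL4R KO and 9.29 and 9.29 in WT (-0.07 ± 0.08, adjusted p = 0.673). The subunits of 1 enzyme thus stood at opposite ends of the class. The clamp gene Pcna differed by -0.14, and the helicase subunits ranged from -0.13 for Mcm7 to -0.35 for Mcm5, with Mcm3 at -0.15, Mcm2 at -0.22 and Mcm6 at -0.33. Mcm5 had 8.92 and 8.88 in IL4R KO and 9.20 and 9.29 in WT (-0.35 ± 0.11, adjusted p = 0.169), and Mcm4 had 9.12 and 9.36 in IL4R KO and 9.42 and 9.61 in WT (-0.27 ± 0.11, adjusted p = 0.239). Thymidylate synthase, Tyms, had 4.94 and 4.80 in IL4R KO and 5.08 and 5.09 in WT (-0.21 ± 0.07, adjusted p = 0.210), all below the lower quartile of array values, where RMA compresses differences.

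Among the regulators of entry into S phase, the E type cyclins were lower without overlap and the D type cyclins overlapped. Ccne2 had 5.32 and 5.05 in IL4R KO and 5.64 and 5.80 in WT (-0.54 ± 0.13, limma adjusted p = 0.0924). Ccne1 had 6.89 and 6.96 in IL4R KO and 7.29 and 7.16 in WT (-0.30 ± 0.08, adjusted p = 0.111). Their partner kinase gene Cdk2 had 8.66 and 8.72 in IL4R KO, against 8.89 and 8.92 in WT (-0.22 ± 0.08, adjusted p = 0.203). In these genes the knockout pools were below both WT pools. Groups overlapped for Ccnd1, with 11.18 and 11.34 in IL4R KO and 11.35 and 11.26 in WT, and for Ccnd2, with 10.95 and 11.33 in IL4R KO and 11.08 and 10.94 in WT. All 7 Ccnd2 probe sets had higher means in IL4R KO, and 2 of them did not overlap, one with a difference between groups of 0.30 (adjusted p = 0.134 over all probe sets), the other with 6.29 and 6.65 in IL4R KO and 6.04 and 6.00 in WT (0.45, adjusted p = 0.157). D cyclins respond to growth signals and are also expressed by cells that do not divide.

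Other probe sets of the same genes gave the same direction in most cases. Of the 50 mitotic probe sets 49 were lower in IL4R KO, and of the 30 replication probe sets 27. Of those with a mean above the lower quartile, all 41 mitotic and all 22 replication probe sets were lower, the smallest differences being -0.005 and -0.0005. Of the 15 probe sets of the regulators of entry into S phase, 9 were higher and 6 lower. Of the 39 probe sets that represent the members, 10 have names that end in s_at or x_at and can bind related transcripts.

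Other genes of the cycle, from lists of 97 measured genes, passed in small number. Of 41 further mitotic genes 5 passed as lower and 0 as higher in IL4R KO, where 1.73% of all genes passed as lower. Of the same 41, 36 were lower without overlap, where 24.6% of all genes were (median -0.39). Espl1, the separase that cuts cohesin, fell to 7.05 and 6.95 in IL4R KO, against 7.67 and 7.63 in WT (-0.65 ± 0.07, limma adjusted p = 0.0115). Kif4, a chromosome motor, fell to 5.75 and 5.70 in IL4R KO, against 6.19 and 6.17 in WT (-0.46 ± 0.06, adjusted p = 0.0222). The spindle gene Ckap2 (-0.58), the condensin subunit Smc2 (-0.50) and Depdc1a (-0.72, mean 3.82 and so near the floor) were the others that fell. Of 18 further regulators 1 passed, the checkpoint kinase gene Chek1, which fell to 6.75 and 6.61 in IL4R KO, against 7.24 and 7.32 in WT (-0.60 ± 0.09, adjusted p = 0.0297). None of 26 further replication genes passed, although 6 were lower and 0 higher at an unadjusted p under 0.05 and 15 were lower without overlap, set against the same 24.6% (median -0.11, Cdc45 -0.35 ± 0.07, adjusted p = 0.0537). The 12 inhibitors of the cycle went the other way in their median (0.16), and none passed. Of these, 2 were higher and 1 lower at an unadjusted p under 0.05. Of all 18193 genes, 1747 were higher and 1702 lower at this unadjusted p. Cdkn1c, a CDK inhibitor, had 9.75 and 9.44 in IL4R KO and 8.96 and 9.08 in WT (0.57 ± 0.12, adjusted p = 0.0656). Without either WT pool none of these 6 calls held, with adjusted p up to 0.295, and Chek1 (adjusted p = 0.704) and Smc2 (adjusted p = 0.411) did not pass with the median of a gene's probe sets. Ckap2 and Smc2 failed without any 1 of the 6 arrays, Kif4 and Chek1 without either transgenic pool, Chek1 also without IL4R KO pool 2, and Depdc1a without either IL4R KO pool, so Espl1 was the call that, of single arrays, depended on the WT pools alone. Without both arrays with liver transcripts none of the 6 passed, although no difference was smaller in size, from -0.49 for Kif4 to -0.75 for Depdc1a, with -0.72 for Espl1 (adjusted p = 0.0613).

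Single arrays set the size of the mitotic difference but not its direction. Without IL4R KO pool 2, the pool low in Y-linked transcripts, the mitotic median was -0.42, and without IL4R KO pool 1, which held liver transcripts, it was -0.75. The replication median was -0.24 and -0.15. In each case all 24 mitotic and all 10 replication genes stayed below both WT pools, where 44.8% and 36% of all genes did. These counts are by the brightest probe set of each gene. The same counts held without WT pool 1 and without WT pool 2, where 32.6% and 34.6% of all genes were lower without overlap. Without both arrays with liver transcripts the medians were -0.82 and -0.13, and again all 24 and all 10 were lower, where 45.7% of all genes were. Other cell type lists differed between IL4R KO and WT as well. Goblet cell markers had log2 summed signals of 11.03 and 10.90 in IL4R KO and 15.02 and 14.99 in WT, with 7 of 7 genes passing as lower, among them Clca1, which fell to 4.57 and 5.27 in IL4R KO, against 14.32 and 14.29 in WT. Smooth muscle markers had 13.98 and 14.05 in IL4R KO and 14.53 and 14.52 in WT, with 6 of 7 passing as lower. T cell markers were highest in IL4R KO pool 2, with a log2 summed signal of 11.26, against 10.59 to 10.81 in the other 5 arrays, and 6 of 7 markers were higher in that pool than in pool 1. The B cell and plasma cell list had summed signals of 13.96 and 13.80 in IL4R KO and 12.67 and 12.64 in WT, with 3 of 7 genes passing as higher. The macrophage list had 13.37 and 13.25 in IL4R KO and 14.26 and 14.34 in WT, but was mixed, with 3 of 9 genes passing as lower and 1 as higher. Its Mmp12 had 8.69 and 7.54 in IL4R KO and 12.57 and 12.65 in WT, and its Marco 6.42 and 6.40 against 5.84 and 5.99. Of all genes 1.73% passed as lower and 1.07% as higher. The part of these cells in the mitotic and replication values was not tested.

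**Figure D2:**
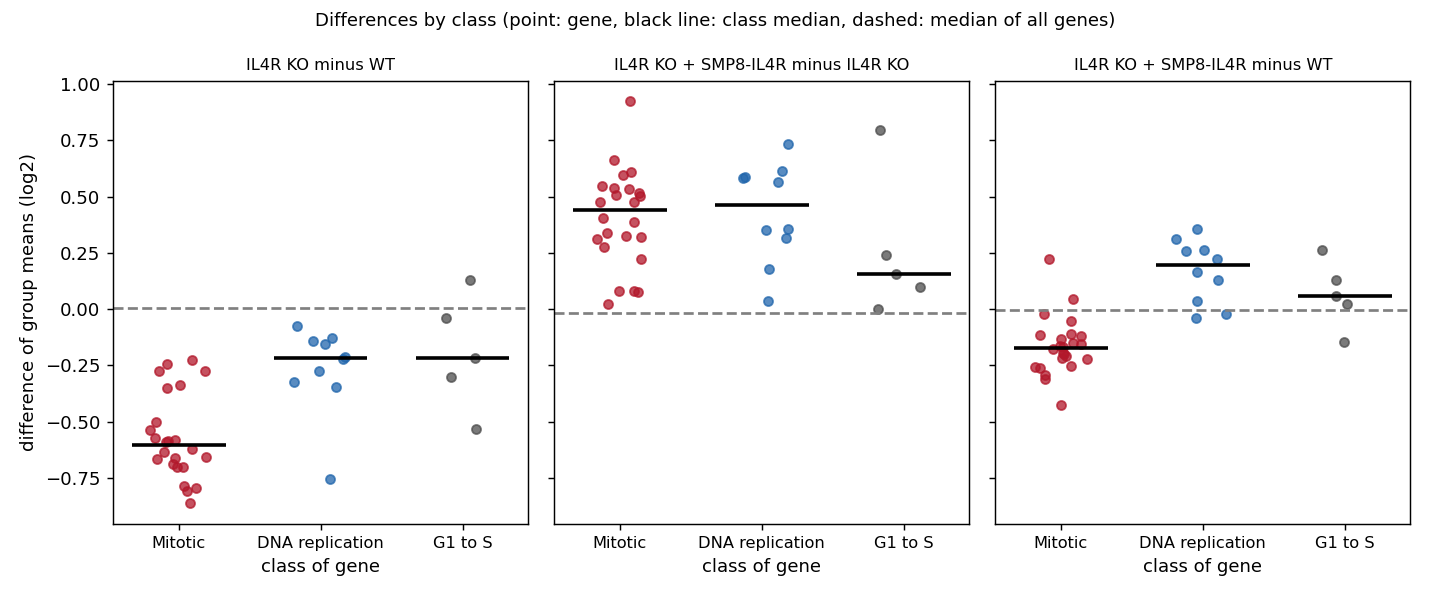
Each point is a gene, placed by its difference of group means on the log2 scale in the comparison named above the panel. Black lines are class medians and dashed lines the median of all genes. In IL4R KO minus WT the medians were -0.61 for mitotic and -0.22 for replication genes, and in IL4R KO + SMP8-IL4R minus IL4R KO they were 0.44 and 0.46.

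The next comparison, of transgenic with IL4R KO lungs, addresses the effect of receptor restored under the SMP8 promoter. Both classes were higher in transgenic lungs in their means, with all 10 replication and all 24 mitotic differences above 0, and again no member passed. The replication median was 0.46 and the mitotic median 0.44, against -0.02 over all genes. With the median of a gene's probe sets they were 0.30 and 0.36. Read singly, 25 of 30 replication and 47 of 50 mitotic probe sets had higher means in transgenic lungs. The groups did not overlap in 9 of 10 replication genes and in 12 of 24 mitotic genes, by their brightest probe sets. Of all genes, 17.9% were higher without overlap and 41% did not overlap in either direction. Not 1 of 39 members passed limma, with 0.0275% of all genes passing, and the lowest adjusted p was 0.151. At an unadjusted p under 0.05, 17 were higher and 0 lower, against 932 and 1049 of all genes. The IL4R KO arrays are the same as in the comparison with WT, so the 2 sets of differences are not independent. Smooth muscle markers were also higher in transgenic lungs, in 7 of 7 genes without overlap (median 0.71, 2 passing limma). Their log2 summed signal was 14.69 and 14.73 in transgenic, 13.98 and 14.05 in IL4R KO and 14.53 and 14.52 in WT lungs, and their part in the values of the cell cycle genes was not tested.

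Most replication genes were higher in both transgenic pools than in both IL4R KO pools. Tyms had 5.42 and 5.46 in transgenic lungs and 4.94 and 4.80 in IL4R KO. By this brightest probe set of Tyms, the transgenic pools were the 2 highest of all 6 arrays. The difference was 0.57 ± 0.07 (SE, limma adjusted p = 0.151) at a low level. A dimmer Tyms probe set had 4.03 and 3.67 in transgenic lungs and 3.90 and 4.09 in IL4R KO. The others were higher in transgenic lungs, with 4.18 and 4.01 against 3.80 and 3.87, and 4.44 and 4.52 against 4.18 and 4.23. Mcm5 had 9.66 and 9.36 in transgenic lungs and 8.92 and 8.88 in IL4R KO (0.61 ± 0.11, adjusted p = 0.252), or 1.53 times the knockout level. Mcm4 had 9.84 and 9.81 in transgenic lungs and 9.12 and 9.36 in IL4R KO (0.59 ± 0.11, adjusted p = 0.252). Mcm6 had 9.79 and 9.38 in transgenic lungs and 8.94 and 9.07 in IL4R KO (0.58 ± 0.14, adjusted p = 0.317). The helicase is a ring of 6 different subunits. By their brightest probe sets, the other 3 differed less but without overlap, with 0.35 for Mcm2, 0.32 for Mcm3 and 0.35 for Mcm7. Rrm2 had the largest difference of the class, 0.73 ± 0.20 (adjusted p = 0.345), with 9.49 and 8.95 in transgenic lungs and 8.70 and 8.27 in IL4R KO. Rrm1 was the 1 replication gene whose groups overlapped by the brightest probe sets. It had 9.34 and 9.16 in transgenic lungs and 9.17 and 9.26 in IL4R KO (0.04 ± 0.08). Dimmer probe sets of other replication genes overlapped too. One of Rrm2 had 8.18 and 7.48 in transgenic lungs and 7.62 and 7.03 in IL4R KO. Only 5 of the 9 replication genes with several probe sets had 1 direction in all of them. Pcna had 12.06 and 11.87 in transgenic lungs and 11.78 and 11.79 in IL4R KO (0.18 ± 0.08, adjusted p = 0.493).

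Among the regulators the E2 cyclin had the lowest p. Ccne2 had 6.09 and 5.87 in transgenic lungs and 5.32 and 5.05 in IL4R KO, a difference of 0.80 ± 0.13 (limma adjusted p = 0.187) or 1.74 times the knockout level. Cdk2 averaged 8.93 ± 0.09 in transgenic lungs and 8.69 ± 0.04 in IL4R KO (SD, n = 2 each), without overlap (0.24 ± 0.08, adjusted p = 0.365), and Ccne1 differed by 0.16 ± 0.08. D type cyclin groups overlapped, with 0.10 for Ccnd1 and -0.001 for Ccnd2.

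The mitotic genes were split by pool. Bub1, a kinase of the spindle checkpoint, had 7.67 and 7.10 in transgenic lungs and 6.51 and 6.41 in IL4R KO, a difference of 0.92 ± 0.18 (limma adjusted p = 0.272), the largest of any member. Both of its transgenic pools were above both knockout pools. Kif11 had 6.49 and 6.16 in transgenic lungs and 5.88 and 5.56 in IL4R KO (0.61 ± 0.15, adjusted p = 0.325), also without overlap. Cenpe had 6.39 and 6.15 in transgenic lungs and 5.94 and 5.65 in IL4R KO (0.47 ± 0.14, adjusted p = 0.348), again with both transgenic pools higher. Nusap1 had 8.19 and 7.65 in transgenic lungs and 7.42 and 7.10 in IL4R KO (0.66 ± 0.19, adjusted p = 0.349). Mki67 had 9.29 and 8.70 in transgenic lungs and 8.77 and 8.03 in IL4R KO, so that transgenic pool 2 lay just below IL4R KO pool 1 (0.59 ± 0.29, adjusted p = 0.502). Transgenic pool 1 was above IL4R KO pool 1 in 24 of 24 mitotic genes, where 51% of all genes were, and transgenic pool 2 in 13 of 24 (54.2%), a share near the 53.2% of all genes that were. Without transgenic pool 1 the mitotic median was 0.20, and without IL4R KO pool 2 it was 0.22, while the replication median was 0.39 and 0.48. With the mean of the Y-linked genes as a covariate the mitotic median was 0.26 and the replication median 0.48. That mean was 3.72 in IL4R KO pool 2 and 7.50 to 8.31 in the other arrays. The covariate thus mainly sets that pool apart and is not a separate check from leaving it out. Without transgenic pool 2, 23 of 24 mitotic genes were above both knockout pools, where 28% of all genes were, and without IL4R KO pool 1, 21 of 24 were above the remaining one, where 30.4% of all genes were. Without transgenic pool 1 the count was 13 of 24, where 28.6% of all genes were higher without overlap, and without IL4R KO pool 2 it was 13 of 24, where 40.5% were.

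None of the 97 related genes passed in this comparison. At an unadjusted p under 0.05, 36 were higher and 0 lower, against 932 higher and 1049 lower of all 18193 genes. Of 26 further replication genes 19 were higher without overlap, where 17.9% of all genes were (median 0.21), among them the thymidine kinase gene Tk1, with 7.74 and 7.40 in transgenic lungs and 7.06 and 6.98 in IL4R KO (0.55 ± 0.12, limma adjusted p = 0.288). Of 41 further mitotic genes 26 were higher without overlap, set against the same 17.9% (median 0.28), with the kinetochore gene Spc25 at 0.76 ± 0.17. Chek1 had 7.38 and 7.19 in transgenic lungs and 6.75 and 6.61 in IL4R KO (0.61 ± 0.09, adjusted p = 0.187). The inhibitors had a median of 0.01.

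**Figure D3:**
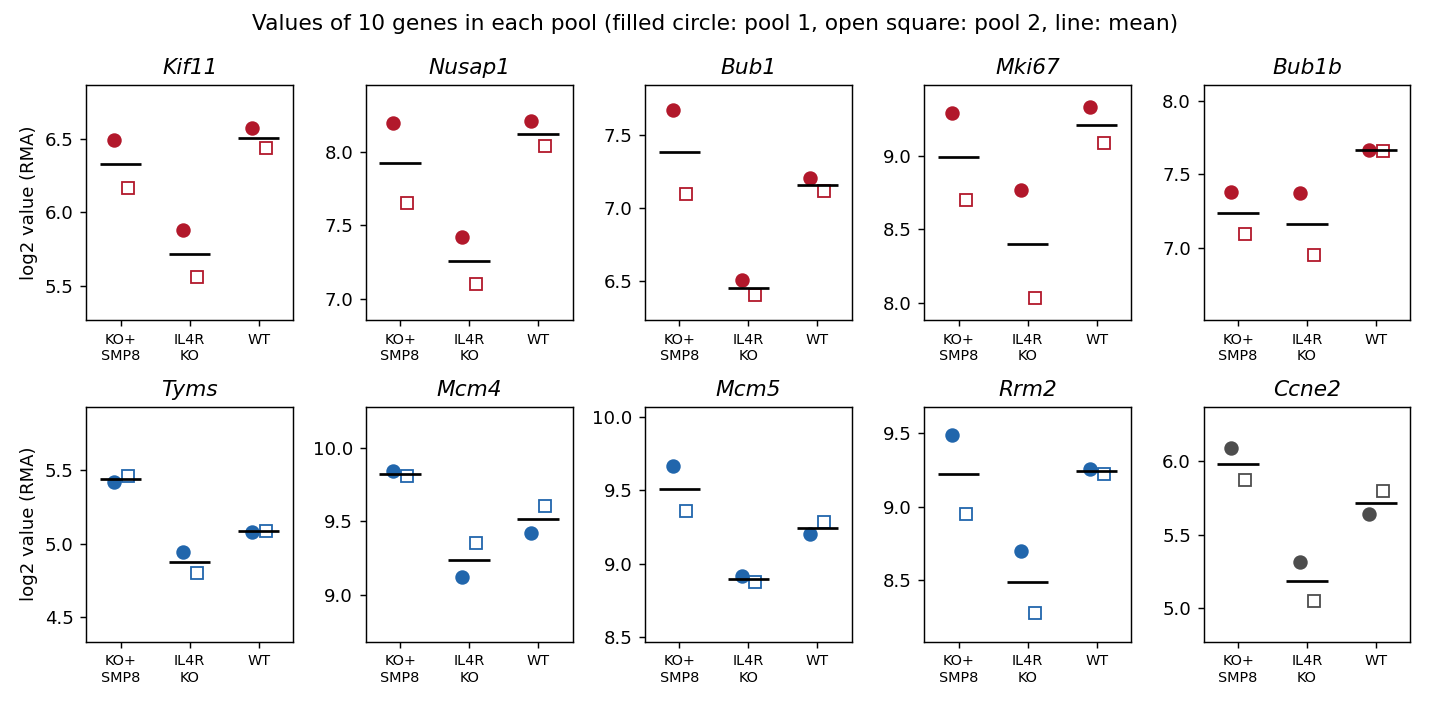
Panels give the log2 values of 10 genes in each pool, with IL4R KO + SMP8-IL4R left, IL4R KO in the middle and WT right, and every axis spans the same range. Filled circles are pool 1, open squares pool 2 and lines group means. Tyms was 5.42 and 5.46 in transgenic, 4.94 and 4.80 in IL4R KO and 5.08 and 5.09 in WT lungs, and Bub1b was highest in both WT pools.

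The last comparison set transgenic lungs against WT. Replication genes were mostly above WT, and no member passed. Mitotic genes were mostly below WT in their means, but this rested on transgenic pool 2, since pool 1 was above WT pool 2 in 19 of 24 and above WT pool 1 in 11 of 24, and without pool 2 the mitotic median turned to 0.07. The replication median was 0.19, and 7 of 10 genes were higher in both transgenic pools than in both WT pools, where 28.5% of all genes were and 57.8% did not overlap in either direction. With the median of a gene's probe sets the replication median was 0.10, and 9 of 30 replication probe sets were lower than in WT. The mitotic median was -0.17, and 5 of 24 genes were lower without overlap, a share below the 29.3% of all genes that were. Of all genes 1.83% passed limma, and the lowest adjusted p of a member was 0.0947. At an unadjusted p under 0.05, 3 members were higher and 1 lower, against 1267 and 1712 of all genes.

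By its brightest probe set, Tyms had 5.42 and 5.46 in transgenic lungs and 5.08 and 5.09 in WT (0.36 ± 0.07, SE, limma adjusted p = 0.0947). Its dimmer probe sets differed in direction. Means were lower with 4.03 and 3.67 in transgenic lungs against 4.14 and 4.06 in WT, and with 4.18 and 4.01 against 4.34 and 4.12. They were higher with 4.44 and 4.52 against 4.14 and 4.31. Mcm4 had 9.84 and 9.81 in transgenic lungs and 9.42 and 9.61 in WT (0.31 ± 0.11, adjusted p = 0.235). Mcm7 had 10.41 and 10.19 in transgenic lungs and 10.09 and 10.06 in WT (0.22 ± 0.09, adjusted p = 0.301). By the brightest probe sets of Tyms, Mcm4 and Mcm7, both transgenic pools were above both WT pools. Mcm5 had 9.66 and 9.36 in transgenic lungs and 9.20 and 9.29 in WT (0.26 ± 0.11, adjusted p = 0.309). By their brightest probe sets, all 6 helicase subunits and Tyms made up the 7 genes without overlap. Pcna, Rrm1 and Rrm2 overlapped with WT, the last with a difference of -0.02. Other probe sets of Mcm2, Mcm3, Mcm5 and Mcm7 did overlap, that of Mcm5 with 8.43 and 8.06 in transgenic lungs and 8.05 and 8.11 in WT. Further ones of Mcm3, Mcm4, Mcm6 and Mcm7 did not overlap. Among the regulators Ccne2 (0.26) and Ccnd2 (0.13) were higher and Ccne1 (-0.15) lower without overlap.

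By their brightest probe sets, mitotic genes below WT in both transgenic pools were Bub1b, Cenpa, Cdca3, Kif20a and Tpx2. Of the 50 mitotic probe sets, 42 had lower and 8 higher means than in WT. Only 8 of the 16 mitotic genes with several probe sets had 1 direction in all of them. A dimmer Cenpa probe set had 6.64 and 6.58 in transgenic lungs and 6.52 and 6.49 in WT. For Bub1b a dimmer probe set had 6.72 and 6.25 in transgenic lungs and 6.70 and 6.66 in WT. Bub1b, a checkpoint protein that holds back anaphase, had 7.38 and 7.10 in transgenic lungs and 7.67 and 7.66 in WT (-0.43 ± 0.16, limma adjusted p = 0.265). Cenpa, the histone H3 variant of centromeres, had 8.03 and 7.73 in transgenic lungs and 8.10 and 8.18 in WT (-0.26 ± 0.11, adjusted p = 0.320). Kif20a had 6.33 and 6.02 in transgenic lungs and 6.35 and 6.42 in WT (-0.21 ± 0.11, adjusted p = 0.411). The kinase gene Aurka had 7.15 and 6.87 in transgenic lungs and 7.47 and 7.14 in WT (-0.30 ± 0.14, adjusted p = 0.378), and its groups overlapped, since transgenic pool 1 lay just above WT pool 2. Transgenic pool 2 was below both WT pools in 24 of 24 mitotic genes, where 39.5% of all genes were, and without transgenic pool 1 the mitotic median was -0.42. Without WT pool 2, 13 of 24 were lower without overlap, where 39.9% of all genes were. Without WT pool 1 the count stayed at 5, where 40.1% were, and without transgenic pool 2 also at 5, where 41% were. The replication count was 7 of 10 without transgenic pool 1, without WT pool 1 and without WT pool 2, where 39%, 38% and 39.2% of all genes were higher, and 10 of 10 without transgenic pool 2, where 38.7% were. Of the related genes 1 passed, Espl1, which fell to 7.17 and 7.07 in transgenic lungs, against 7.67 and 7.63 in WT (-0.53 ± 0.07, adjusted p = 0.0284), where 1.41% of all genes passed as lower. Espl1 did not pass without any 1 of the WT or transgenic pools, with differences from -0.58 to -0.48 and adjusted p up to 0.252, nor without both arrays with liver transcripts (-0.55, adjusted p = 0.0918).

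The 2 pools of a group differed from each other in the mitotic genes more than in the replication genes. In transgenic lungs 23 of 24 mitotic genes were higher in pool 1, with a median gap of 0.44, and 8 of 10 replication genes, with a median gap of 0.21. In IL4R KO 23 of 24 mitotic genes were higher in pool 1 (median 0.32), but only 3 of 10 replication genes (median -0.03). WT pools were closer, with 19 of 24 mitotic genes higher in pool 1 (median 0.12) and 3 of 10 replication genes (median -0.03). Of all genes 46.5%, 40.2% and 49.4% were higher in pool 1 of transgenic, IL4R KO and WT lungs. Tpx2 was the mitotic gene that went against the rest in both transgenic and IL4R KO pools, at -0.13 and -0.20. Its brightest probe set had 6.55 and 6.68 in transgenic, 6.43 and 6.64 in IL4R KO and 6.71 and 6.85 in WT lungs, while the next brightest had 6.83 and 6.48, 6.30 and 6.12, and 6.82 and 6.60 in the same groups. The other probe set thus had the pool order of the class, and the value of Tpx2 depends on which is read. Within IL4R KO, Rrm2 sided with the mitotic genes, with a gap of 0.42 between pools, against -0.24 for Mcm4.

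Neutrophil markers also differed between pools. Of 8 measured markers, 7 were higher in transgenic pool 1 than in pool 2 (median gap 1.95), 8 were higher in IL4R KO pool 1 (0.66) and 7 were lower in WT pool 1 (-0.30). The log2 summed signal of the list was 14.78 and 12.64 in transgenic, 14.01 and 13.01 in IL4R KO and 12.32 and 12.60 in WT lungs. S100a8 had 13.59 and 10.56 in transgenic lungs. Among the granule genes, Ngp had 10.98 and 7.09 and Camp 8.99 and 6.26 in the same pools, Ltf had 11.41 and 11.43, Mpo ran from 5.27 to 5.52 over the 6 arrays and Elane from 6.36 to 6.61. In WT the mitotic genes and the neutrophil markers differed between pools in opposite directions. Macrophage markers differed by medians of 0.13, 0.15 and -0.13 between pools of transgenic, IL4R KO and WT lungs. The part of these cells in the mitotic values was not tested.

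**Figure D4:**
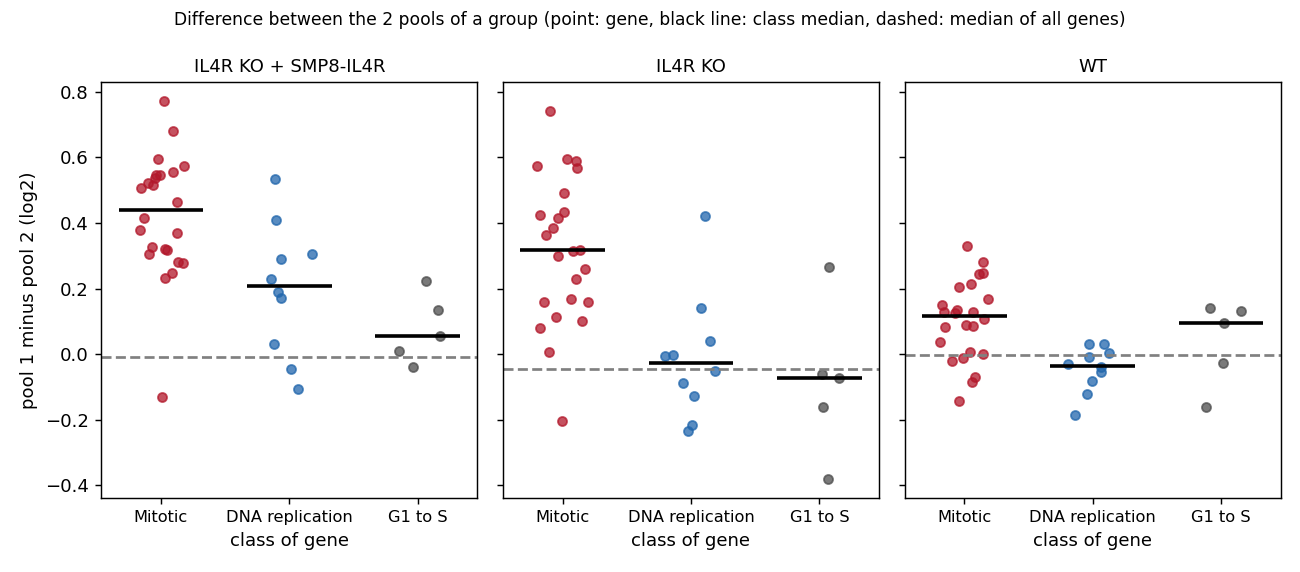
Each point is a gene, placed by its log2 value in pool 1 minus that in pool 2 of IL4R KO + SMP8-IL4R, IL4R KO or WT. Black lines are class medians and dashed lines the median of all genes. The mitotic medians were 0.44, 0.32 and 0.12, and the replication medians 0.21, -0.03 and -0.03.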

How the data were processed

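RNA of whole lungs, in pools of 4 mice, was measured on 6 Affymetrix mouse expression arrays. The authors deposited log2 values from RMA, per the submitters' processing notes (version not given in the sources used here). RMA compresses dim signals, and the table had no detection calls. The number of arrays limits the precision. Of 45101 probe sets, 64 array controls were left out. Of the rest 34945 named 1 gene, 932 several and 9160 none. Symbols were matched by Entrez identifier to RefSeq (34741 probe sets, 0 symbols changed). Each of 18193 genes was read by 1 probe set, the one brightest on average. No gene was filtered on its level, so each measured member was tested.

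limma 3.58.1 in R 4.3.3 fitted 1 mean per group over all 6 arrays, with Benjamini-Hochberg adjustment over all 18193 genes and a call at an adjusted p under 0.05 (3 residual and 3.17 prior degrees of freedom). The p-values set a difference of group means against the spread between pools, moderated over all genes. The labels do not tie the pools to separate experiments. The code was tested on simulated data. The members and all gene lists were chosen with earlier results of these data known. Lists are given by counts and medians. Genes named were mainly the 4 of each class with the lowest p in each comparison. They were joined by up to 3 of each list of related genes, those that passed, and further members as examples. Not all have their values in every array printed, and some are given by a mean or a difference alone. Alternatives changed the array scaling, the filter on dim genes, the choice of probe set, the variance model, a Y-linked covariate, the replicate block and the arrays kept.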

Additional observations from a re-analysis of the deposited data

How the results depend on the processing

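The medians of mitotic and replication genes kept their sign under every alternative, except the mitotic median of transgenic lungs against WT, which was 0.0724 without transgenic pool 2. Leaving out 1 array at a time, the mitotic median ran from -0.75 to -0.42 (IL4R KO minus WT), from 0.20 to 0.63 (transgenic minus IL4R KO) and from -0.42 to 0.07 (transgenic minus WT), and the replication median from -0.25 to -0.15, from 0.39 to 0.51 and from 0.08 to 0.32. The replication median of transgenic minus IL4R KO was 0.30 with all probe sets and 0.30 with the median of a gene's probe sets. Members called ran from 0 to 2, 0 to 0 and 0 to 1, with Bub1 alone below WT in IL4R KO without either transgenic pool, Bub1b and Kif11 without IL4R KO pool 1, and Tyms above WT in transgenic lungs without either IL4R KO pool or with a Y-linked covariate (1 member). In IL4R KO minus WT, 1 member, Kif11, passed with an intensity trend and robust variances. With the replicate number as a block, 7 mitotic genes did, Aurka, Cdk1, Cenpe, Kif11, Melk, Mki67 and Nusap1. No label says whether the replicate numbers pair the pools. Over all genes, the deviations of the pools correlated at 0.094 (transgenic and IL4R KO), -0.064 (transgenic and WT) and -0.478 (IL4R KO and WT). These correlations cannot decide pairing, since they include the liver transcripts of IL4R KO pool 1 and WT pool 2. The lowest adjusted p of a member ran over all alternatives from 0.0156 to 0.303, 0.0808 to 0.896 and 0.0413 to 0.458.

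Counts without overlap, an alternative added after the data were seen, ran over single arrays left out from 24 to 24 and 10 to 10 (IL4R KO minus WT, mitotic and replication), 12 to 23 and 9 to 10 (transgenic minus IL4R KO) and 5 to 24 and 7 to 10 (transgenic minus WT). Without both arrays with liver transcripts, 21 mitotic genes were above IL4R KO and 13 below WT in transgenic lungs.

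All genes called were 510, 5 and 333. They ran from 124 to 834, 0 to 39 and 89 to 639 with 1 array left out, were 288, 0 and 202 without both arrays with liver transcripts, and 837, 28 and 604 with a Y-linked covariate. A robust intensity trend gave 788 in IL4R KO minus WT and 18 in transgenic minus IL4R KO, where filters on dim genes gave 12 and 13, and the median of probe sets and the replicate block 1 each. The cause of these shifts was not tested. With 2 pools a group, leaving out 1 leaves a lone array, assumed to vary like the others.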

Other observations

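The inhibitors of the cycle did not move as a block. Cdkn1a, which encodes the p21 inhibitor and was chosen here after its values were seen, had 10.59 and 10.83 in transgenic, 11.69 and 10.76 in IL4R KO and 10.88 and 10.77 in WT lungs, so IL4R KO pool 1 stood above the other 5 arrays. Wee1, a kinase that restrains Cdk1 and was also chosen after its values were seen, was highest in the same pool, with 9.82 and 9.85 in transgenic, 10.22 and 9.67 in IL4R KO and 9.78 and 9.77 in WT lungs. That pool also held the liver transcripts. Cdkn1b, the p27 inhibitor, had 11.13 and 11.25 in transgenic, 11.02 and 11.03 in IL4R KO and 10.90 and 10.82 in WT lungs, and its difference between transgenic and WT lungs was 0.33 ± 0.07 (SE, limma adjusted p = 0.109).

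Orc6, a subunit of the complex that marks replication origins, had 7.97 and 7.90 in transgenic lungs, 7.74 and 7.78 in IL4R KO and 7.61 and 7.64 in WT, and its difference between transgenic and WT lungs was 0.31 ± 0.07 (limma adjusted p = 0.0972).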
